A study of Mus musculus with 8 samples.

Results

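The major urinary protein (Mup) genes form a cluster of gene copies on mouse chromosome 4. The genes described here are Mup1, Mup2, Mup3, Mup7, Mup9, Mup11, Mup14, Mup19, Mup20 and Mup21. They were taken by symbol, and all 10 were among the 14317 mouse genes in the data. Another 14 genes and pseudogenes named Mup were also present and are used for comparison. The data are RNA sequencing libraries from the livers of female mice, 1 library per mouse, with 4 mice implanted with an empty pellet (Con-Veh) and 4 mice implanted with a 10 mm silastic pellet filled with the androgen dihydrotestosterone (Con-DHT). All mice were fed a western diet (WD), were implanted at 7 weeks of age, received diet and pellet for 8.5 weeks and kept their ovaries. The labels give the genotype as WT in both groups. The study asked how androgen excess alters the liver of female mice under this diet.

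Major urinary proteins are small secreted lipocalins. They are made mainly by hepatocytes, pass from blood into urine and carry volatile pheromones in a barrel-shaped pocket. Adult male mice make far more of them than females. The difference between the sexes depends largely on growth hormone, which male mice release in pulses and females release more continuously, and which acts in hepatocytes through the transcription factor STAT5b. Androgens shape that secretion pattern. The copies at the centre of the cluster arose by recent duplications and are nearly identical, while those at its edges are more divergent.

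The copies can be told apart only by few bases. The 7 central copies are Mup1, Mup2, Mup7, Mup9, Mup11, Mup14 and Mup19. Their coding sequences were identical at 98.3% to 99.8% of bases over the 21 pairs, with gaps counted as unlike. The pairs had 1 to 7 mismatched bases, and those with Mup11 also had a gap of 3 bases. The most alike pair was Mup9 and Mup19. The 24 pairs that include Mup3, Mup20 or Mup21 shared between 82.3% and 94.7% of bases, with Mup3 and Mup21 the most alike among them. A stretch of 60 coding bases near the start of the reading frame is shown. It holds 4 of the 10 positions, gaps aside, at which the central copies differ from each other. The stretch is given 5′ to 3′ on the coding strand, which is the minus strand for every copy, from the principal transcripts of GENCODE M21 on GRCm38. Capitals mark bases unlike Mup9. The letters of Mup2 and Mup11 are the same as those of Mup9, and the letters of Mup14 are the same as those of Mup7.
Mup9, chr4:60421815-60421874: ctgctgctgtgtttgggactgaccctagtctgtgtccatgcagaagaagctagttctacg
Mup1, chr4:60501778-60501837: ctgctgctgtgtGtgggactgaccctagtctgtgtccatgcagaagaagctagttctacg
Mup7, chr4:60070229-60070288: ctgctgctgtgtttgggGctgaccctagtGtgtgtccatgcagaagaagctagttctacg
Mup19, chr4:61782087-61782146: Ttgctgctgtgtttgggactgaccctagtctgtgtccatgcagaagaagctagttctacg
Mup20, chr4:62053975-62054034: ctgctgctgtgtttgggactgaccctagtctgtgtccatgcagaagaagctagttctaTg
Mup3, chr4:62087148-62087207: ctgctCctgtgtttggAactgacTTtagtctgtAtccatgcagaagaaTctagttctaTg
Mup21, chr4:62150678-62150737: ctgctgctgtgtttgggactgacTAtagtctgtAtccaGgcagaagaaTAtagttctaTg

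**Figure D1:**
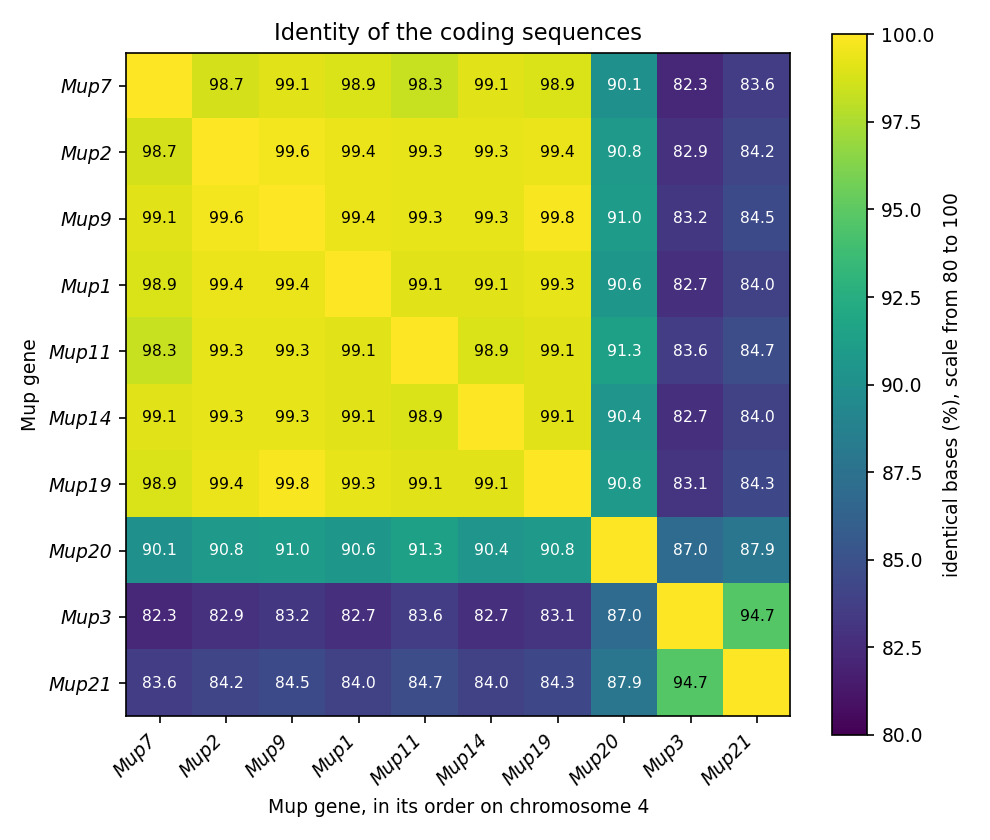
Identity of the coding sequences of the 10 Mup genes, as the percentage of aligned bases that are identical, for each pair of genes in their order on chromosome 4 (color scale from 80 to 100%). The 7 copies from Mup7 to Mup19 form a block at 98.3% to 99.8%, and Mup20, Mup3 and Mup21 stand outside it.

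The likeness bears on how well each value belongs to its copy. The authors counted reads that align to 1 place, so a read that several copies share is not counted for any of them. Of all stretches of 150 bases, the length of 1 read, 100% were found in no other annotated gene for Mup3 and Mup21. For Mup20 the share was 68.9%, with the rest shared with the pseudogene Mup-ps19. For the central copies it was 23.1% in Mup9, 22.5% in Mup7, 21.8% in Mup11, 21% in Mup14, 17.5% in Mup1, 9.25% in Mup2 and 0.900% in Mup19, and these copies shared stretches with 14 or 15 other genes each. These shares are for single stretches of the principal transcript. The reads are paired, so that either mate can place a pair, and exons of other transcripts are counted too, neither of which the shares include. Which copy a read came from is uncertain among the central copies, and their counted values may hold only part of their reads. No gene outside the family overlaps any of the 10 in this annotation.

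Upstream of the genes, a stretch present in all 8 promoters found in RefSeq (GRCm38.p6) showed the same division. The annotated start sites differ between copies, so the stretch ends between 1 base (Mup7) and 138 bases (Mup9) before the start. It is shown to set the sequences side by side, and a link to the values below was not tested. Capitals again mark bases unlike Mup9, whose letters Mup2 and Mup11 repeat and from which Mup19 differs at 1 base. Mup1 and Mup20 had no entry.
Mup9, chr4:60422090-60422202, minus strand: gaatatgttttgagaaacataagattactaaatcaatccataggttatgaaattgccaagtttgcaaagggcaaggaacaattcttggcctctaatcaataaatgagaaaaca
Mup7, chr4:60070476-60070588, minus strand: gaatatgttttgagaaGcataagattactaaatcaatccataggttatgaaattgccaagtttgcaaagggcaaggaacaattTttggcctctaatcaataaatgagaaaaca
Mup14, chr4:61304082-61304194, minus strand: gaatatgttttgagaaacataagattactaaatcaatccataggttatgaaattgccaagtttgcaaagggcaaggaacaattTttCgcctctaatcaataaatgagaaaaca
Mup3, chr4:62087399-62087510, minus strand: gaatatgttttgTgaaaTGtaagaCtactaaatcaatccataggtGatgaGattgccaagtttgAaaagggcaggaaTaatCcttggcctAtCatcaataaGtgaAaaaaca
Mup21, chr4:62150917-62151028, minus strand: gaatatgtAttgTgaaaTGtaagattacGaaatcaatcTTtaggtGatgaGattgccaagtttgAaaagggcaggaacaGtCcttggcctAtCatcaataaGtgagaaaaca

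A set of 4 motifs was searched on both strands of the 250 bases before the start sites of these 8 genes. They were TTCNNNGAA, the letters bound by STAT proteins, the androgen response element, which the glucocorticoid receptor also binds, TTGCNNAA, those bound by C/EBP proteins, and TATAAA. None of the 4 was found in any of the 8 windows. Over 32851 promoters of the same length, 7.02%, 0.387%, 9.56% and 12.4% held them. The result says only that these letters are not in these windows.

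The values are read counts divided by a size factor per library, and are called normalized counts here. Reads on mouse genes numbered between 14240001 and 17815944 in the Con-Veh libraries and between 13123962 and 15205299 in the Con-DHT libraries, and 3 reads equal a normalized count between 2.61 and 3.30. The groups were compared with limma on log2(normalized count + 1) over the 14312 genes with a mean of at least 10, with Benjamini-Hochberg adjustment over all of them, and a gene was called at an adjusted p of at most 0.05. Fold changes on this scale understate changes of genes with low values. Of the hepatocyte markers, Alb, Ttr and Apoa1 had high values in all libraries and none was called, while 3 of 4 Kupffer cell markers (Cd5l, Vsig4 and Clec4f) and 1 of 3 endothelial markers (Stab2) were lower in Con-DHT. The summed level of the Kupffer cell markers was 5001 to 6333 in Con-Veh and 3380 to 4606 in Con-DHT, and the part of this in the Mup results was not tested. In whole liver, a change in the number of cells of a type and a change in RNA per cell cannot be told apart.

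Of the 10 Mup genes, 9 were called higher in Con-DHT and none lower, where 4.6% of all tested genes were called higher and 7.21% in either direction. A log2 fold change of at least 3 was called in 7 of the 10 and in 0.231% of tested genes. In 8 of the 10 every Con-DHT mouse lay above every Con-Veh mouse, against 8.49% of tested genes. Mup1 and Mup9, which are in each of these counts, had Con-Veh means of 1.72 and 9.70. They passed the mean of 10 only through Con-DHT and could not have been called lower. The median log2 fold change of the 10 was 4.54, with a range from 0.78 to 8.43, and the median of all tested genes was -0.0081. The gene that was not called was Mup3. The plot of values by library shows that the groups lie far apart in most copies, overlap in Mup3 and Mup21, and that the copies differ by orders of magnitude in either group.

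**Figure D2:**
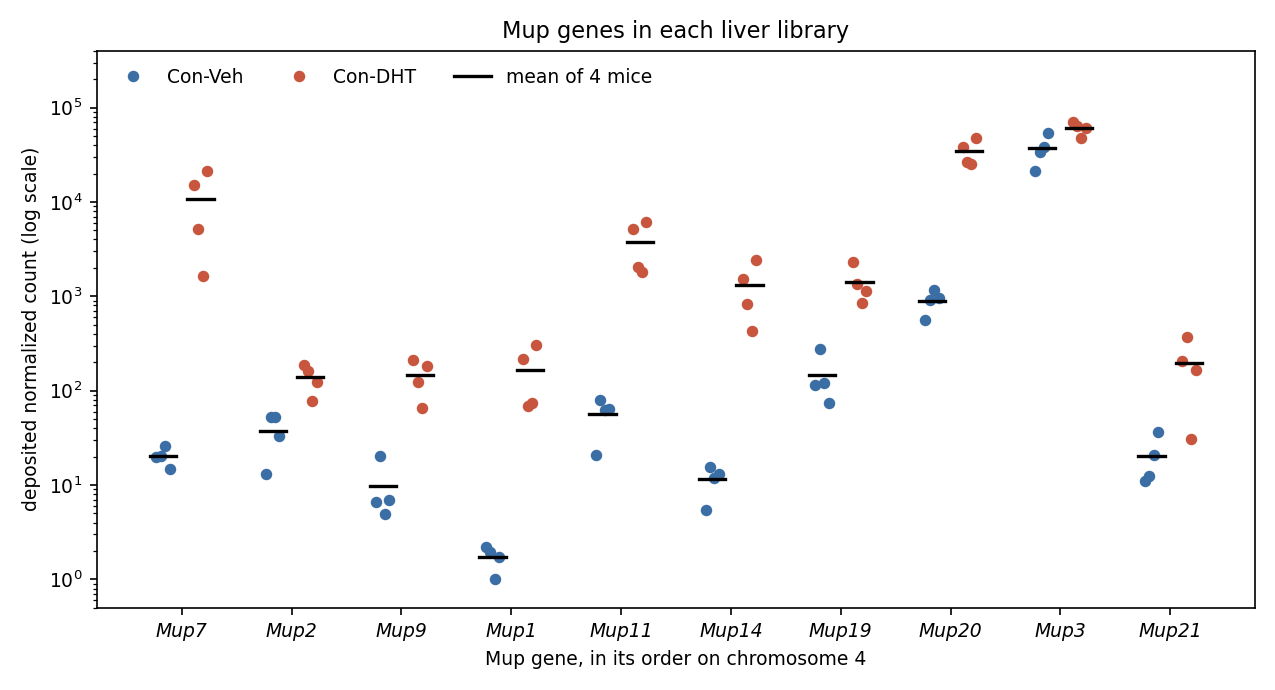
Normalized count (log axis) of each Mup gene in each liver library, with 4 Con-Veh mice (blue) and 4 Con-DHT mice (red), and black lines for the mean of a group. Mup7 spans from 14.8 in the lowest Con-Veh mouse to 21039 in the highest Con-DHT mouse, while the groups of Mup3 overlap.

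Mup7 (ENSMUSG00000073842) had the largest log2 fold change of all tested genes. Its normalized counts in Con-Veh mice 1 to 4 were 19.8, 20.3, 26 and 14.8, and in Con-DHT mice 1 to 4 they were 15099, 5119, 1638 and 21039. The lowest treated mouse was thus far above the highest control, but the treated mice differed from each other by 12.8-fold. The means were 20.2 ± 4.56 and 10724 ± 8935 (SD, n = 4), and the log2 fold change was 8.43 (adjusted p = 0.00017 by limma, SE 0.65). In Con-Veh the spread between mice, a coefficient of variation of 22.6%, was about that of read counting alone, 22.1%. In Con-DHT it was 83.3% against 0.98% for counting.

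Mup14 (ENSMUSG00000073830) and Mup11 (ENSMUSG00000073834) followed the same form at lower levels. Mup14 had 5.50, 15.4, 12 and 13.1 in the Con-Veh mice and 1540.3, 823, 434 and 2426 in the Con-DHT mice. Mup11 had 20.9, 79.1, 61.9 and 63.5 in Con-Veh and 5207, 2040.0, 1813 and 6060.3 in Con-DHT. No treated mouse of either gene came near the controls, and in both genes mice 1 and 4 were the high ones of the Con-DHT group. The log2 fold changes were 6.51 for Mup14 (adjusted p = 0.00015 by limma, SE 0.48) and 5.99 for Mup11 (adjusted p = 0.00019, SE 0.48).

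Mup1 (ENSMUSG00000078683) was close to undetected in Con-Veh. It had 1 or 2 reads per library there, 7 in all, and normalized counts of 2.20, 1.93, 0.998 and 1.74. In Con-DHT the normalized counts were 218, 68.7, 74.5 and 304, from 646 reads in all. The ratio of the groups over all reads was 95.7, with a 95% counting interval from 46.2 to 239 that covers counting error only. The fitted log2 fold change, 5.68 (adjusted p = 0.00023 by limma, SE 0.47), depends on the pseudocount and ran from 4.4 with a pseudocount of 5 to 6.28 with 0.1.

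Mup20 (ENSMUSG00000078672) encodes darcin, a pheromone of male urine that attracts females. It had the smallest SE of the 10 genes. Its normalized counts were 556, 910.1, 1165 and 969.5 in Con-Veh and 38001, 26509.9, 25049 and 47695 in Con-DHT. All treated mice stood well above all controls, with a ratio of highest to lowest of 2.09 within Con-Veh and 1.9 within Con-DHT. The log2 fold change was 5.25 (adjusted p = 1.4e-05 by limma, SE 0.25).

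Mup9 (ENSMUSG00000078686), Mup19 (ENSMUSG00000078673) and Mup2 (ENSMUSG00000078688) rose with smaller fold changes. Mup9 had 6.6, 20.3, 4.99 and 6.96 in Con-Veh and 212, 125, 65.3 and 182 in Con-DHT, for a log2 fold change of 3.84 (adjusted p = 0.00100 by limma, SE 0.45). Mup19, the copy with the fewest stretches of its own, had 115, 275, 121 and 74 in Con-Veh and 2297, 1362, 843 and 1138 in Con-DHT, for a log2 fold change of 3.33 (adjusted p = 0.00094, SE 0.39). In both genes mouse 2 was the highest of the controls, and still below every treated mouse. Mup2 had 13.2, 52.1, 52.9 and 33.1 in Con-Veh and 189, 161, 78.6 and 125 in Con-DHT, so that the groups came closest without overlapping. Its log2 fold change was 1.95 (adjusted p = 0.0212, SE 0.42), and the adjusted p ranged up to 0.0621 over the alternatives, with the call kept in 15 of 19.

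The remaining genes, Mup21 (ENSMUSG00000066153) and Mup3 (ENSMUSG00000066154), lie side by side at one edge of the cluster and have transcripts that no other gene shares. Mup21 had 11, 12.5, 21 and 36.6 in Con-Veh and 207, 374, 30.6 and 167 in Con-DHT. Mouse 3 of the treated group fell within the range of the controls while the others were well above it. Its log2 fold change was 2.90 (adjusted p = 0.0281 by limma, SE 0.67). The call was kept in 12 of 19 alternatives, with adjusted p up to 0.0752, and without Con-DHT mouse 3 the log2 fold change was 3.62 (adjusted p = 0.00188).

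Mup3 had the highest counted values in the untreated female liver. All stretches of Mup3 are its own, while few are in the central copies, so that their levels cannot be set against that of Mup3 on 1 scale. Its normalized counts were 21314, 33789, 38179.8 and 54117 in Con-Veh and 70494, 63225, 47686 and 60263 in Con-DHT. Con-Veh mouse 4 lay above Con-DHT mouse 3, and the other mice were ordered by group. The means were 36849.9 ± 13548 and 60417 ± 9514 (SD, n = 4), and the log2 fold change of 0.78 (SE 0.25) had an adjusted p of 0.0981 by limma. The adjusted p ranged from 0.0267 with DESeq2 to 0.203 without Con-DHT mouse 1, and it was 0.0423 without Con-Veh mouse 4, where the log2 fold change was 0.99. With libraries scaled by the spike-ins the log2 fold change of Mup3 was 0.98.

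The copies were ordered by their counted level within each group. Per kilobase of transcript, the mean level in Con-Veh was 37449 for Mup3, 970.1 for Mup20, 158 for Mup19 and 60.6 for Mup11. Mup2, Mup21, Mup7, Mup14, Mup9 and Mup1 followed, from 40.8 down to 1.85. The range over mice did not overlap the next gene's for Mup3 and Mup20 at the top and for Mup9 above Mup1 at the bottom. Neighbours in between had overlapping ranges, although Mup19 was above Mup11, and Mup11 above Mup2, in 4 of 4 mice.

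In Con-DHT the levels per kilobase began with Mup3 at 61399 and Mup20 at 36976, whose ranges overlapped while Mup3 was above Mup20 in all 4 mice. Mup7 came next at 11568, Mup11 at 4064, Mup19 at 1521 and Mup14 at 1412. Mup21, Mup1, Mup9 and Mup2 closed the order at 288, 179, 169 and 149, and each of them was above the next in 2 of 4 mice, so that these 4 were not separated. By its mean Mup7 took the seventh place in Con-Veh and the third in Con-DHT, but its neighbours were close. In Con-Veh, Mup21 was above it in 2 of 4 mice. In Con-DHT its range overlapped that of Mup11, and it was above Mup11 in 3 of 4 mice. Since the copies differ in how many of their reads can be placed, these are orders of counted reads and not of transcript levels.

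Summed over the 10 genes, the normalized counts were 22065, 35175, 39645 and 55330.3 in Con-Veh and 133464, 99806, 77711 and 139400.0 in Con-DHT. Every treated mouse was above every control. The sums were 0.141% to 0.357% of all normalized counts in Con-Veh and 0.533% to 0.977% in Con-DHT. With all 24 rows named Mup the shares were 0.146% to 0.361% and 0.576% to 1.09%. The family was thus a small part of the counted liver reads in both groups. The ratio of the group means was 2.96. An SD of 1.31, built from the SDs of single mice in each group, describes single mice and is not the error of this ratio. Mup20 had the largest difference of group means, from 900.2 to 34314, ahead of Mup3, whose own ratio of means was 1.64, and Mup7. Mup3 was the main part of the Con-Veh sum. Without Mup3 the ratio of group means was 43.3, and without Mup3 and Mup20 it was 58.8.

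The make-up of the sum shifted accordingly. Mup3 held 96.7% ± 0.776 of it in Con-Veh and 55.2% ± 9.19 in Con-DHT (SD, n = 4). Mup20 went from 2.45% ± 0.50 to 30.4% ± 3.48, and Mup7 from 0.0599% ± 0.0260 to 8.41% ± 5.88. These are shares of normalized counts, not corrected for length or for reads that could not be placed. The plot of summed values shows a single visible component in the controls and several in the treated mice.

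**Figure D3:**
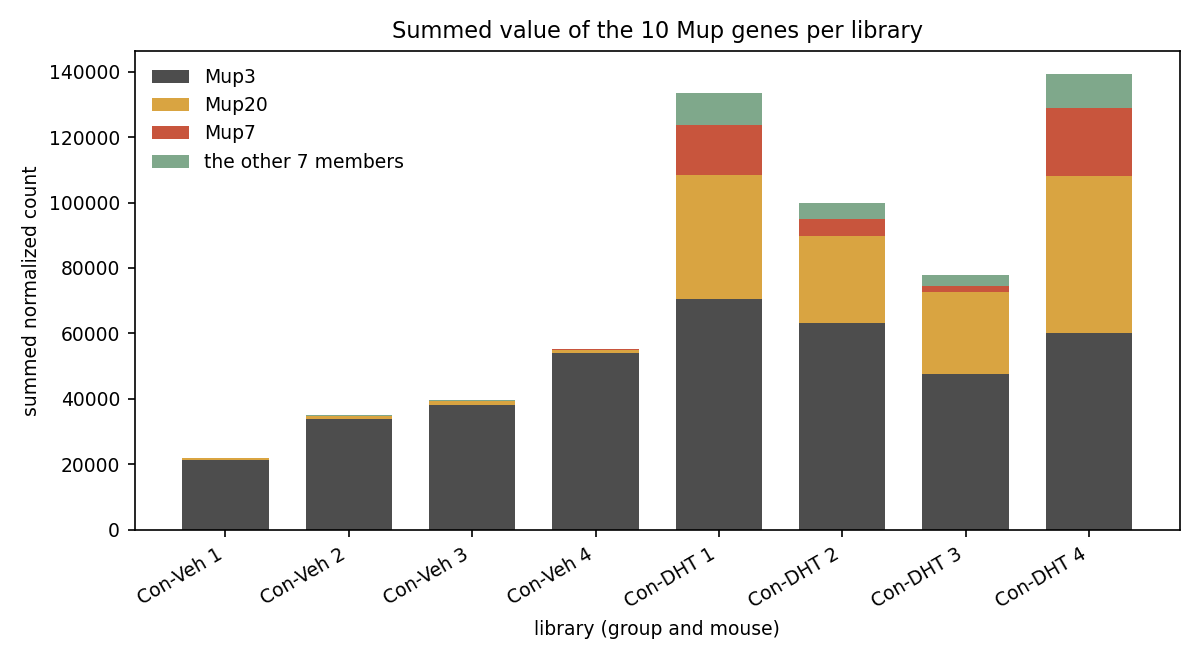
Summed normalized count of the 10 Mup genes in each library (axis from 0), divided into Mup3, Mup20, Mup7 and the other 7 members. Mup3 makes up 96.1% to 97.8% of the bar in the Con-Veh mice and 43.2% to 63.3% in the Con-DHT mice, where Mup20 adds 26.6% to 34.2%.

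The copies shared much of their order across the treated mice. Con-DHT mouse 3 was the lowest of its group in 9 of the 10 Mup genes, all but Mup1. For comparison, it was the lowest in 25.2% of all tested genes and in 44.2% of the genes called higher in Con-DHT. The highest was mouse 4 in Mup1, Mup7, Mup11, Mup14 and Mup20, mouse 1 in Mup2, Mup3, Mup9 and Mup19, and mouse 2 in Mup21. The exact order of mice 4, 1, 2, 3 was shared by Mup7, Mup11, Mup14 and Mup20, an order found in 5.36% of all tested genes and 12.6% of those called higher. Another order, of mice 1, 2, 4, 3, was shared by Mup2, Mup3 and Mup19, and its share over all tested genes was not computed. With 4 mice no correlation was computed, and these counts are a description.

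The size of the deviations differed more than their order. Con-DHT mouse 3 had 0.15 of the group mean in Mup7 and 0.16 in Mup21, 0.33 in Mup14, 0.45 in Mup1 and Mup9, 0.48 in Mup11, 0.57 in Mup2, 0.60 in Mup19, 0.73 in Mup20 and 0.79 in Mup3. Mouse 4 had 1.96 of the group mean in Mup7 and 0.998 in Mup3. The ratio of Mup7 to Mup20 therefore moved from 0.0654 in mouse 3 to 0.193 in mouse 2, 0.397 in mouse 1 and 0.441 in mouse 4. Mup20 followed the same order of mice as Mup7, Mup11 and Mup14. Its stretches are shared with no central copy, and the part of misplaced reads in the shared order was not tested. The depth of Con-DHT mouse 3, 14275075 reads, and its spike-in share, 2.67%, were within the range of its group.

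Among the controls the copies had less in common. Con-Veh mouse 1 was the lowest in 6 of the 10 genes, Mup2, Mup3, Mup11, Mup14, Mup20 and Mup21. It was the lowest in 28.5% of all tested genes. Mouse 2 was the highest in Mup9, Mup11, Mup14 and Mup19, mouse 3 in Mup2, Mup7 and Mup20, and mouse 4 in Mup3 and Mup21. No order of the 4 mice was shared by more than 2 genes, the pairs being Mup11 with Mup14 and Mup3 with Mup21. Many of these values rest on few reads, since Mup1, Mup9, Mup14, Mup7 and Mup21 had between 7 and 86 reads over the 4 Con-Veh libraries.

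**Figure D4:**
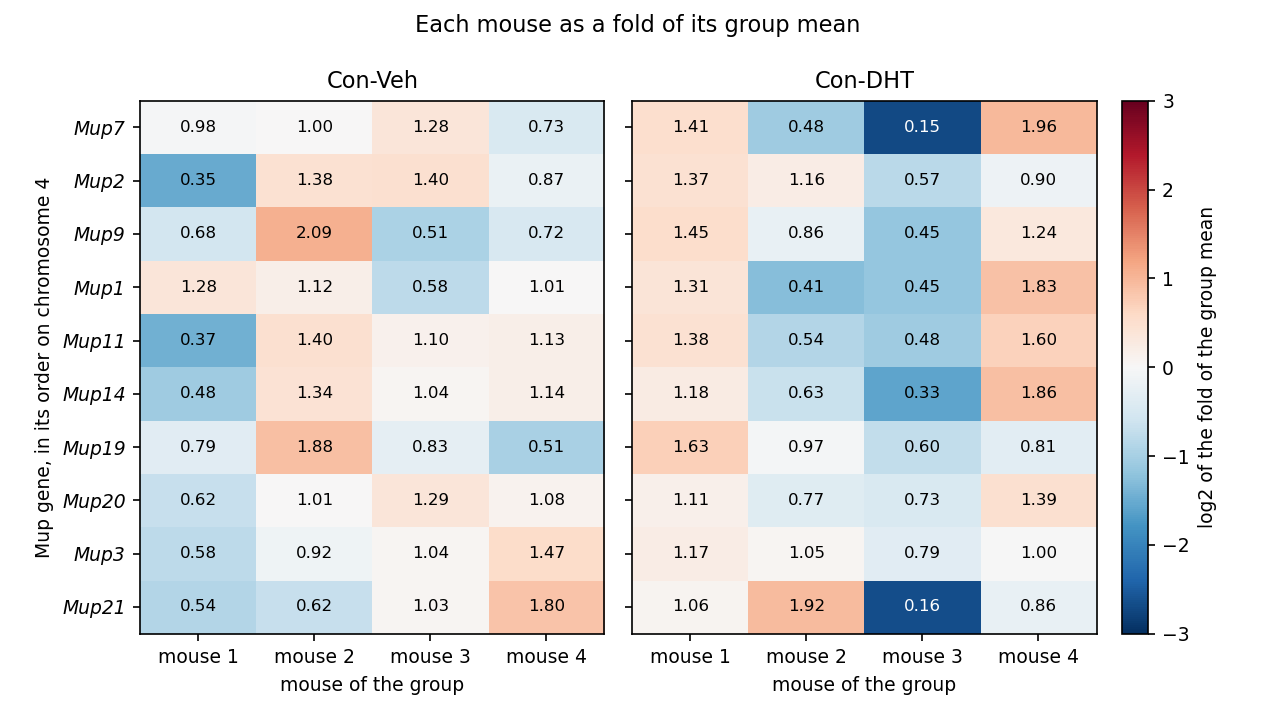
Each mouse as a fold of the mean of its group for each Mup gene, with the fold printed in the cell and its log2 as color (blue below, red above the group mean), for Con-Veh (left) and Con-DHT (right). In Con-DHT the column of mouse 3 is below the mean in all 10 genes, from 0.15 in Mup7 to 0.79 in Mup3.

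The other Mup rows changed in the same direction. All 14 were called higher in Con-DHT, against 4.6% of all tested genes. In 13 of them every Con-DHT mouse lay above every Con-Veh mouse, against 8.49%. The median log2 fold change was 3.15, with a range from 0.95 in Mup10 to 4.97 in Mup-ps19. Mup8, Mup12, Mup-ps7, Mup-ps12, Mup-ps14 and Mup-ps19 had Con-Veh means from 2.40 (Mup-ps7) to 6.51 (Mup-ps19). They passed the filter at a mean of 10 only through Con-DHT and could not have been called lower. The data hold no row with fewer than 81 reads, so copies below that could not be among the 14. Mup15 had 109, 599, 192 and 90.5 in Con-Veh and 5606, 2939, 2371 and 7459 in Con-DHT, and Mup17 had 92.3, 445, 188 and 54.8 against 5523, 3648, 2419 and 5889. Both were highest in Con-Veh mouse 2, as were 9 of the 14, and as were Mup9, Mup11, Mup14 and Mup19. Mup22 had 400.1, 393, 421 and 341 in Con-Veh and 1159.6, 985, 543 and 846 in Con-DHT, for a log2 fold change of 1.13 (adjusted p = 0.00774 by limma, SE 0.20). In Con-DHT, mouse 3 was the lowest in 11 of the 14 rows, and 6 rows had the order of mice 4, 1, 2, 3. The order of mice 1, 2, 4, 3 was that of Mup22, Mup-ps7 and Mup-ps12. The call was lost in 9 of 18 alternatives for Mup10, in 4 of 18 for Mup-ps7, in 6 of 18 for Mup-ps14 and in 6 of 19 for Mup-ps16. Of these 14 rows, 6 are annotated as pseudogenes. The share of stretches of their own was not computed for any of the 14. Mup12 shared 73.8% of the stretches of Mup1, Mup18 66.2% of those of Mup19 and Mup15 53.5% of those of Mup7. Which copy a read came from is thus uncertain here too.

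For the genes that border the cluster the count was near the background. Of the 5 tested genes nearest to it on each side, Snx30, Inip, E130308A19Rik, Hsdl2, Ptbp3, Slc31a2, Fkbp15, Slc31a1, Cdc26 and Prpf4, none was called in either direction by limma (0 of 10), where 7.21% of all tested genes were called. None was called by edgeR or DESeq2 either, and 1 of the 10 had an unadjusted p under 0.05. This was Slc31a1, a copper transporter, at a log2 fold change of -0.18 (adjusted p = 0.123 by limma, SE 0.065), with 2472 to 2785 in Con-Veh and 2298 to 2441 in Con-DHT, so that its groups did not overlap. Their log2 fold changes ran from -0.22 to 0.17 with a median of -0.0071. Gm13775 and Gm12909 lie within the cluster and are not named Mup, and their sequences were not compared with the Mup copies. Neither was called, at 0.81 (adjusted p = 0.21 by limma, SE 0.36) and -0.11 (adjusted p = 0.823, SE 0.22). The plot of fold changes along the cluster shows high and low values next to each other with no gradient from one side to the other.

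**Figure D5:**
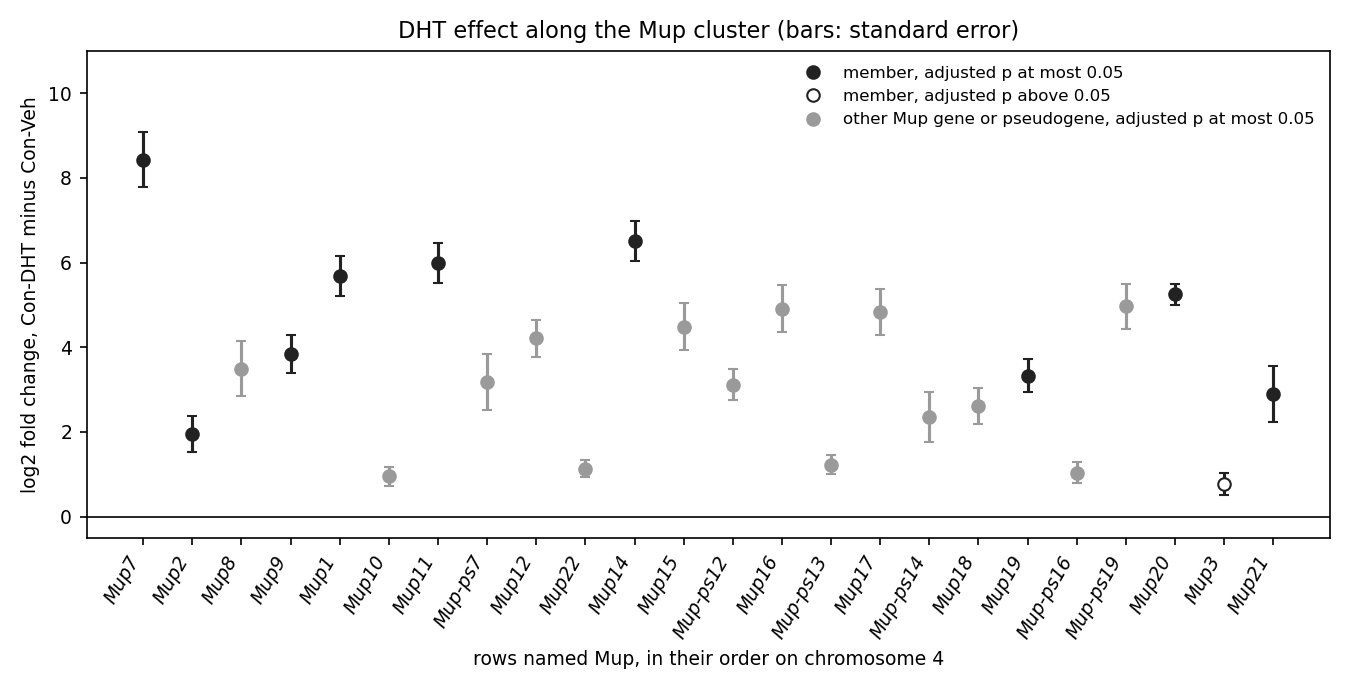
Log2 fold change (Con-DHT minus Con-Veh, with its standard error) of the 24 rows named Mup in their order on chromosome 4, with the 10 members in black and the other genes and pseudogenes in grey. Filled points have an adjusted p of at most 0.05. All 24 lie above 0, from 0.78 in Mup3 (open point) to 8.43 in Mup7.

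Growth hormone and STAT5 pathway genes include the receptor, its kinase and the feedback inhibitors Socs2 and Cish. Of 15 listed genes, 1 was called higher and none lower, a share near that of all tested genes, of which 7.21% were called. Bcl6, a repressor that is more abundant in male liver, had 454, 840, 701 and 601 in Con-Veh and 1608, 1577, 1017 and 817 in Con-DHT, for a log2 fold change of 0.93 (adjusted p = 0.0453 by limma, SE 0.24). The mice of the groups overlapped by 1 pair, Con-Veh mouse 2 and Con-DHT mouse 4, and the call was lost in 9 of the 19 alternatives. Cux2, a transcription factor of female liver, had 1001, 563, 562 and 768 in Con-Veh and 30.4, 33.9, 374 and 392 in Con-DHT. Its groups did not overlap and its log2 fold change was -2.64 (SE 0.80), but the adjusted p was 0.0783. The mice with the low Cux2 values were 1 and 2. In Mup2, Mup3, Mup19 and Mup21 these mice were above mice 3 and 4. In Mup1, Mup7, Mup9, Mup11, Mup14 and Mup20, mice 1 and 4 were above mice 2 and 3. A link between Cux2 and the Mup genes was not tested. Stat5b itself had a log2 fold change of -0.24 (adjusted p = 0.299 by limma, SE 0.13).

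Among lipocalin genes outside the family, 11 of 12 listed were tested and 1 was called, where 7.21% of all tested genes were. The number was 4 with DESeq2, 5 with spike-in scaling, 2 without Con-Veh mouse 1 or Con-DHT mouse 1, and 0 with a mean of at least 50, a filter that Obp2a does not pass. The called gene was Obp2a, an odorant-binding protein, with 2.20, 0, 0 and 0.870 in Con-Veh and 47.1, 46.5, 32.7 and 25 in Con-DHT. Its means were 0.767 in Con-Veh and 37.8 in Con-DHT. It thus passed the filter at a mean of 10 only through Con-DHT and could not have been called lower. It had 3 reads in all in Con-Veh and 151 in Con-DHT, a ratio of 52.2 with a 95% counting interval from 17.5 to 256. The groups did not overlap, and the adjusted p was 0.00048 by limma. The median log2 fold change of the 11 was -0.48. The lowest fold changes of the list, none called, were in proteins of the acute phase response, Lcn2 at -2.49 (adjusted p = 0.159, SE 0.98), Orm2 at -1.93 and Orm3 at -1.62. Lcn2 had 1674, 2708, 144 and 168 in Con-Veh and 58.9, 114, 343 and 45.7 in Con-DHT. Orm2 had 2466, 2081, 142 and 155 in Con-Veh and 123, 174, 614 and 40.2 in Con-DHT. In both, Con-Veh mice 1 and 2 stood far above the other controls and mouse 3 was the highest of the treated group, the mouse that was lowest in 9 of the Mup genes. The part of this in the Mup results was not tested. Apod had a log2 fold change of 2.14 (adjusted p = 0.0748, SE 0.64) and Rbp4, the retinol carrier of plasma, one of 0.12 (adjusted p = 0.659, SE 0.14).

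Outside the family, the genes whose profile over the 8 libraries was most like the mean profile of the 10 Mup genes were Pitx3, C330002G04Rik, Cyp2d9, Obp2a and Gm30931, with root mean square differences of 0.45, 0.49, 0.85, 0.90 and 0.92 on the log2 scale. C330002G04Rik had 6.6, 7.72, 2.99 and 9.57 in Con-Veh and 162, 149, 90.8 and 222 in Con-DHT. Cyp2d9, a steroid hydroxylase that is higher in male liver, had 148, 234, 789.6 and 1284 in Con-Veh and 18587, 11525, 6412 and 15164 in Con-DHT. The measure favours genes with a large rise and with the same order of mice as the Mup mean, so neither is a result about these genes.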

How the data were processed

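RNA from 8 livers, 4 per group, was sequenced with 1 library per mouse, and samples were grouped by the treatment in the labels. According to the study's methods, synthetic ERCC transcripts were spiked into the RNA of each library. The submitters' notes name Trimmomatic, STAR, featureCounts (Subread) and DESeq2 with the build GRCm39. The deposited table is a normalized signal, which the authors made from read counts per gene divided by 1 size factor per library. It holds 14371 rows, 54 of them spike-ins, and no row has fewer than 81 reads over the libraries. Dividing each column by the worth of 1 read gave whole numbers for 100% of the values (within 0.01 reads). Reads on mouse genes ranged from 13123962 to 17815944, and counting intervals cover counting error only.

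Groups were compared with limma 3.58.1 (lmFit, eBayes with an intensity trend, two-sided) in R 4.3.3, as stated in the report. On simulated data of 14127 genes, 86 were changed by 1 and 109 by 2 on the log2 scale. Of these changes limma found 68.6% and 95.4%, and 4.68% of its calls were false. With DESeq2 13.5% of the calls were false. Fewer genes were changed there than were called in the data, and no larger changes were simulated. Alternatives were pseudocounts of 0.1 and 5, a filter at a mean of 50 or none, equal totals without the Mup genes, an equal upper quartile, spike-in scaling, limma without the trend, a replicate block, edgeR 4.0.16 and DESeq2 1.42.0 on the whole reads, and leaving out each library. The sums without Mup3 and without Mup3 and Mup20 were added after seeing the data. Replicate numbers mark different mice of the 2 groups and were not treated as pairs. Replicates are separate mice, and libraries of a group differed beyond sampling noise (chi-square per degree of freedom 19.2 to 61.6 over 12 pairs).

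The members and the lists were chosen with earlier results of these data known. Named were all members, every other row named Mup, the 5 tested genes nearest to each side of the cluster, the called genes and a few others of the growth hormone and lipocalin lists, and the 5 genes with the nearest profiles. An allele that the methods give for the mice of both groups, and the values of a listed gene, are not reported here. Lcn2, Orm2 and Orm3 were named after their values were seen. The listed genes Tf, Lcn13, Cd3e and Cd79a were not tested. Of the other markers, none of 3 stellate and 4 cholangiocyte markers was called, nor was Ptprc. Symbols (14287 of 14317 genes), gene order, transcripts and coding sequences came from GENCODE M21 (GRCm38) and promoters from RefSeq (GRCm38.p6), so that their coordinates are not those of the authors' build. Identity between members was computed on coding bases with Biopython 1.88, where protein identity had been planned.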

Additional observations from a re-analysis of the deposited data

Results flagged for a closer look

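Of 22 sets of 4 mice (the 10 Mup genes and their sum in each group), 1 held a mouse far from the others by Dixon's test, where chance alone gives about 1 in 20. This was Mup9 in Con-Veh mouse 2, at a normalized count of 20.3 against 4.99 to 6.96 in the other 3 mice, a gap of 0.871 of the range. It rests on 21 reads. Without that mouse the log2 fold change of Mup9 remained positive and its call was kept.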

How the results depend on the processing

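The call of Mup1, Mup7, Mup9, Mup11, Mup14, Mup19 and Mup20 was kept in all 19 alternatives, and all 10 members kept a positive log2 fold change in each of them. Mup2 lost its call in 4 and Mup21 in 7, and Mup3 gained one with DESeq2 and without Con-Veh mouse 4. The number of members called was 8 without the trend and with the replicate block, 10 with DESeq2 and 7 to 9 as each mouse was left out. Over all tested genes 1032 were called. The number was 648 with a mean of at least 50, 637 with spike-in scaling and 1569 with DESeq2, and 633 to 905 as each mouse was left out, lowest without Con-Veh mouse 4 and also over 1.5 times lower without Con-Veh mouse 2 (648) and Con-DHT mice 1 (659) and 2 (662). Of the other Mup rows, 14 were called as reported and 7 with a mean of at least 50, where only these 7 were tested, and of the growth hormone genes 0 to 2 were called over the alternatives. Replicate numbers do not pair the mice (correlations of deviations from -0.186 to -0.0060), and with the replicate block 700 genes were called, with the Mup2 call lost (adjusted p = 0.0551). Spike-in scaling moved the median log2 fold change of all genes to 0.19, with 562 higher and 75 lower calls, and equal totals without the Mup genes moved it to 0.090, with 1082 higher and 208 lower, where 658 and 374 were reported. Under spike-in scaling limma gave every gene the spread of the trend, so that its p-values for single genes do not use their own spread. The ratio of summed member values, 2.96, was 2.60 to 3.49 as each mouse was left out, 43.3 without Mup3 and 58.8 without Mup3 and Mup20. Depth limits Mup1 most, with 7 reads in the Con-Veh group.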
